A study of Mus musculus with 20 samples.

Results

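Chromatin-associated RNA of mouse embryonic stem cells was profiled for N6-methyladenosine (m6A), and the regions described here are the m6A peaks that lay on pseudogenes. A peak was taken when its summit fell in an exon of an annotated pseudogene on the same strand and in no protein-coding gene of that strand. Of 437949 peaks on chromosomes in 10 immunoprecipitated libraries, 3928 met this rule, and they lay on 617 of the 13523 annotated pseudogenes (4.56%). The tested cells were the Mettl3 knockout lines KO1 and KO2 and the Ythdc1 conditional knockout (cKO), each set against its own control. All were C57BL/6 cells grown with LIF and the inhibitors CHIR99021 and PD0325901. The Mettl3 KO1, Mettl3 KO2, Mettl3 control, Ythdc1 cKO and Ythdc1 control groups had 2 immunoprecipitated libraries each, and the 10 input samples were not analysed here. The sources used here do not give how the alleles were made, when Ythdc1 was deleted, whether a line was a clone or whether both libraries of a group had their own culture. P-values therefore speak only to variation from library to library, which could be technical. A peak list holds no expression level, so the loss of Mettl3 or Ythdc1 RNA was not checked. Of 10 embryonic stem cell marker genes, 7 to 10 carried a peak in each library, and 1 to 4 of 8 fibroblast markers did.

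Most pseudogenes are copies of genes that have lost the coding function of their parent. Processed pseudogenes were made by reverse transcription of a messenger RNA and carry no introns, whereas unprocessed ones arose by duplication of genomic DNA. METTL3 carries the active site of the m6A methyltransferase of the nucleus, which acts within DRACH motifs (D is A, G or U, R is A or G, and H is A, C or U), often as GGAC. YTHDC1 is the nuclear protein that binds m6A. A pseudogene transcript can hold the methylation sites of its parent, since it holds much of its sequence.

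Several parents had many copies with a peak at matching bases, and stretches of them show what those copies share. All were read from GENCODE M21 transcripts (mm10) and are written 5′ to 3′ as DNA. Coordinates are given for stretches that lie in 1 exon. The sequences below are from the gene of the chromatin protein HMGB1 and 4 copies, with bases in capitals where a copy differs from the parent at the same position. Hmgb1-ps2 (chrX:146176385-146176485, plus strand) and Gm45315 (chr7:12797666-12797766, plus strand) had 0 differences over these 101 bases. Gm5176 (chr10:111501218-111501318, plus strand) had 2 differences and Gm7468 (chr6:142970765-142970865, minus strand) had 3.
Hmgb1: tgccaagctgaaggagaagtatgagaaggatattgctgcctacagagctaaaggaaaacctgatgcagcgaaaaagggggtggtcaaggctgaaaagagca
Hmgb1-ps2: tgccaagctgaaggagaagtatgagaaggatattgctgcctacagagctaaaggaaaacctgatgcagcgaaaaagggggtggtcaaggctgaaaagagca
Gm45315: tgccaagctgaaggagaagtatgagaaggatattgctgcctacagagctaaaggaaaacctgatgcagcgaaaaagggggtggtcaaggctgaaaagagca
Gm5176: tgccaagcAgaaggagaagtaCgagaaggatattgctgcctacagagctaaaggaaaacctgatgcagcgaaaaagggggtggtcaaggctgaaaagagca
Gm7468: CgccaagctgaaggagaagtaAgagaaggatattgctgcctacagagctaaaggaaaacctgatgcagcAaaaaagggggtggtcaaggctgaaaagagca

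Copies of Cdv3, of the pre-mRNA splicing factor gene Crnkl1 and of the chromatin remodeler gene Smarca5 carried peaks at the next stretches. In the Cdv3 and Smarca5 sequences capitals again mark bases that differ from the parent, and in the Crnkl1 sequences they mark GGAC. Cdv3-ps (chr14:43122146-43122206, minus strand) had 0 differences from Cdv3 over 61 bases, Gm13146 (chr4:147187918-147187978, plus strand) had 3 and Gm13223 (chr4:145455810-145455870, plus strand) had 10. Gm4782 (chr6:50609385-50609445, plus strand) and Gm5301 (chr6:23166605-23166665, minus strand) had 7 and 8 differences from Crnkl1. Of the copies of Smarca5 (chr8:80727691-80727751, minus strand), Gm13136 (chr4:147737911-147737971, minus strand) had 0 differences and Gm13231 (chr4:145641787-145641847, plus strand) had 1.
Cdv3: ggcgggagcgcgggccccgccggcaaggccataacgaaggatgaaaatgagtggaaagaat
Cdv3-ps: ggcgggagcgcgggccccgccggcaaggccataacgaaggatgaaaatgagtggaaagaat
Gm13146: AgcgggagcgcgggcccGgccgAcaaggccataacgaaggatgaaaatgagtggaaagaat
Gm13223: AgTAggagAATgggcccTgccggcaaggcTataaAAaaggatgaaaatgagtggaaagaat
Crnkl1: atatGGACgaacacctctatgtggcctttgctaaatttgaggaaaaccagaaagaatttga
Gm4782: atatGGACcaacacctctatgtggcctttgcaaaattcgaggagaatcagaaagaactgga
Gm5301: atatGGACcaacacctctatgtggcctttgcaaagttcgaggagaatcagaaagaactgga
Smarca5: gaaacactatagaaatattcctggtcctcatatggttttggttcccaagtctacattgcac
Gm13136: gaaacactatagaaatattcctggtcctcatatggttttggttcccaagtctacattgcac
Gm13231: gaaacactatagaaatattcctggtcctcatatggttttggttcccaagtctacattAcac

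Stretches from copies of the ribosomal protein gene Rpl21 and of Hpcal1, which encodes a neuronal calcium sensor protein, are shown with GGAC in capitals. Rpl21-ps11 (chr3:96666533-96666593, minus strand) had 0 differences from Rpl21 and Gm5857 (chr3:144427213-144427273, minus strand) had 1. Gm9265 (chr12:20111243-20111303, plus strand) had 3 differences from Hpcal1 (chr12:17786250-17786310, plus strand), and Gm49686 (chr12:22960091-22960151, minus strand) had 7. The copy Rpl17-ps5 (chr5:22612680-22612740, minus strand) of the ribosomal protein gene Rpl17 is shown with GAAGA in capitals.
Rpl21: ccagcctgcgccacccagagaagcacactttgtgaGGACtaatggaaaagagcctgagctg
Rpl21-ps11: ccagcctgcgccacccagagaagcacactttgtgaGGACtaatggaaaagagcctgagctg
Gm5857: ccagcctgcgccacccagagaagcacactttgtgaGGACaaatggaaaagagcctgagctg
Hpcal1: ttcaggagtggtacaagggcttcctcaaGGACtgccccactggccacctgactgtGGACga
Gm9265: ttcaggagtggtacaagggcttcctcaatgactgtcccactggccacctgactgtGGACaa
Gm49686: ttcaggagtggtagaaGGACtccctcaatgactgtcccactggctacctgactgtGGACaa
Rpl17-ps5: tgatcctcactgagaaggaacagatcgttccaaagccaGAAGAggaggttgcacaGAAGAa

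The summit stretches of 4 further pseudogenes are shown with GGAC in capitals, because they carried some of the highest kept, lost or gained peaks. They are Gm13316 (chr2:14812329-14812389, minus strand), Gm8689 (chr10:100298017-100298077, minus strand), Gpx4-ps2 (chr10:45875929-45875989, plus strand) and Gm16215 (chr3:144848051-144848111, plus strand). These 4 all hold GGAC, as did the stretches read in the same way from Gm8174 and Gm48365. The stretches of Gm20796, Gm12397, Gm5512, Gm13378, Gm5542, Gm5852, Gm10093 and Gm19829 held none. The printed ones therefore do not stand for the highest peaks in general.
Gm13316: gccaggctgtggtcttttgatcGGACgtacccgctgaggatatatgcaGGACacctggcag
Gm8689: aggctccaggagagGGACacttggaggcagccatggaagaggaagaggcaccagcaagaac
Gpx4-ps2: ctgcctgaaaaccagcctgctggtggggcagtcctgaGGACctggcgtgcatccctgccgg
Gm16215: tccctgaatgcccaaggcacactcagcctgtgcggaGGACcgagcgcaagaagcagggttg

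The lists held 40959 to 46735 peaks on chromosomes per library, with a median width of 256 to 338 bp on pseudogenes and of 340 to 395 bp in exons of protein-coding genes. Read counts were not part of the lists, so the depth is unknown, and a missing peak means that none was called. The authors' fold enrichment at the summit is a ratio within a library and was used to describe and rank peaks. The sources used here do not give how reads that map to several copies were treated. For copies that match their parent or each other over the length of a read, the source of a peak cannot be told apart.

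Peaks on pseudogenes were fewest in Mettl3 KO1. KO1 libraries held 271 and 275 of them and KO2 libraries 437 and 430, against 428 and 437 in the Mettl3 controls. The cKO libraries held 397 and 406, against 428 and 419 in the Ythdc1 controls. As a share of all peaks of a library this was 0.666% ± 0.00638 in KO1 and 0.993% ± 0.0159 in KO2, against 0.940% ± 0.00701 in the Mettl3 controls (mean ± SD, n = 2 each). The share was 0.882% ± 0.0122 in the cKO and 0.990% ± 0.0131 in its controls. Both KO1 libraries lay below all others of their comparison, and both KO2 libraries lay above the Mettl3 controls in share. The 4 knockout libraries together differed from the 2 Mettl3 controls by -0.110 percentage points (exact permutation test, two-sided, p = 0.467). This value was -0.0542 without KO1 replicate 1, -0.0572 without KO1 replicate 2 and -0.169 without KO2 replicate 2. KO1 alone differed by -0.274, KO2 by +0.0533 and the cKO by -0.108 percentage points, each with an exact p = 0.333, which is the smallest that 2 against 2 libraries allow. With 4 against 2 the smallest is 0.0667, so no comparison could pass 0.05. With the same number of strongest peaks taken from each list, the KO2 difference was -0.0159. With transcribed, unitary and polymorphic types left out, the cKO difference was -0.0586. In bulk RNA, fewer cells with a transcript and less of it per cell cannot be told apart. Pseudogenes with a peak numbered 215 and 224 in KO1 and 357 and 352 in KO2, against 328 and 335 in the Mettl3 controls. They numbered 324 and 326 in the cKO, against 325 and 329 in the Ythdc1 controls.

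The groups differed in another order once pseudogenes were split by identity to the parent at 95%, a value chosen after seeing the data. A parent was assigned to 608 of the 617 pseudogenes, 58 by symbol and 550 by the best nucleotide match. They came from 366 parents with a median identity of 95.8%. Pseudogenes under 95%, or with no parent, held 0.287% ± 0.00195 of the peaks in KO1 and 0.416% ± 0.0194 in KO2, against 0.508% ± 0.0159 in the Mettl3 controls. In counts these were 118 and 117 peaks in KO1 and 191 and 172 in KO2, against 235 and 232. All 4 knockout libraries lay below both Mettl3 controls here, with a mean difference of -0.157 percentage points (exact permutation test, two-sided, p = 0.133). The corresponding values were 0.467% ± 0.0317 in the cKO and 0.459% ± 0.0151 in its controls, which overlapped. Pseudogenes of at least 95% identity held 0.379% ± 0.00833 in KO1 and 0.578% ± 0.0353 in KO2, against 0.432% ± 0.00885 in the Mettl3 controls. They held 0.415% ± 0.0195 in the cKO, against 0.531% ± 0.0282 in the Ythdc1 controls. KO2 libraries lay below both controls in the first class and above both in the second. The cKO libraries overlapped with their controls in the first class and lay below both in the second.

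**Figure D1:**
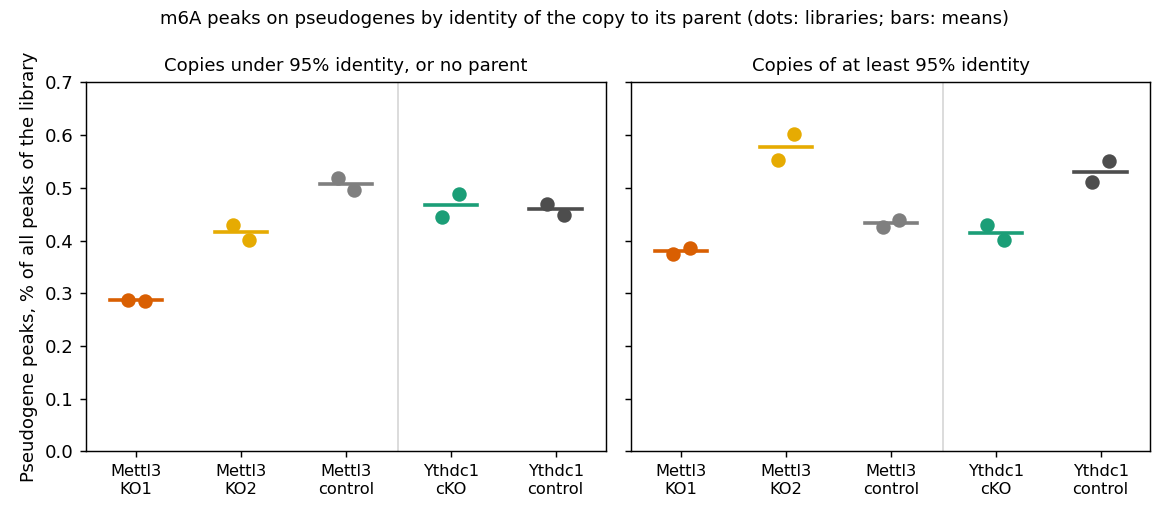
Peaks on pseudogenes as a percentage of all peaks of each library (vertical axis), for pseudogenes under 95% identity to their parent or with none (left panel) and of at least 95% (right panel). Dots are libraries and bars are group means. In the left panel the KO2 libraries lie below the Mettl3 controls, and in the right panel they lie above them.

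Regions were formed by merging the peaks of a comparison that overlapped on a strand. A region was lost when both controls and no knockout library had a peak, kept when every library had one, and gained when every knockout library and neither control had one. For Mettl3 KO (KO1 and KO2 together), 68 of 413 pseudogene regions with a peak in both controls were lost (16.5%), against 13.1% of all such regions. Kept regions numbered 203 of 413 (49.2%), against 57.7% of all regions, and gained regions 12 of the 223 with a peak in every knockout library (5.38%), against 4.38%. In exons of protein-coding genes the shares were 7.17% lost, 68.7% kept and 2.25% gained. For KO1 alone, 152 of 412 were lost (36.9%), against 24.3% of all regions, 215 were kept (52.2%), against 64.6%, and 17 of 242 were gained (7.02%), against 12.3%. The gained regions of KO1 numbered 30 without its replicate 1 and 28 without its replicate 2. With a library left out the rule asks for fewer libraries, so such a count tends to rise by the rule itself. For KO2 alone, 77 of 412 were lost (18.7%), against 18.4%, 294 were kept (71.4%), against 70.3%, and 85 of 398 were gained (21.4%), against 14.7%. For the cKO, 61 of 373 were lost (16.4%), against 17.9% of all regions, 286 were kept (76.7%), against 72.2%, and 61 of 374 were gained (16.3%), against 28%. In exons of protein-coding genes, 15.6% were lost and 4.63% gained in KO1, 11.4% and 10% in KO2, and 15.5% and 6.09% in the cKO. The Mettl3 comparisons share their control libraries.

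Pseudogene regions had no KO1 peak more often than all regions did, in each of 5 classes of control peak height and in both KO1 libraries. Of the 413 pseudogene regions, 43.3% and 41.4% had no peak in the KO1 libraries, against 29.8% and 29.7% of all regions. In the KO2 libraries 23.0% and 24.2% had none, against 23.3% and 24.8% of all regions. Among the highest of 5 classes of control peak height, 21.5% and 18.7% of 107 pseudogene regions had none in KO1, against 6.40% and 6.49% of all regions in that class. In the cKO libraries 19.8% and 19.8% of 373 pseudogene regions had none, against 23.2% and 22.5% of all.

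**Figure D2:**
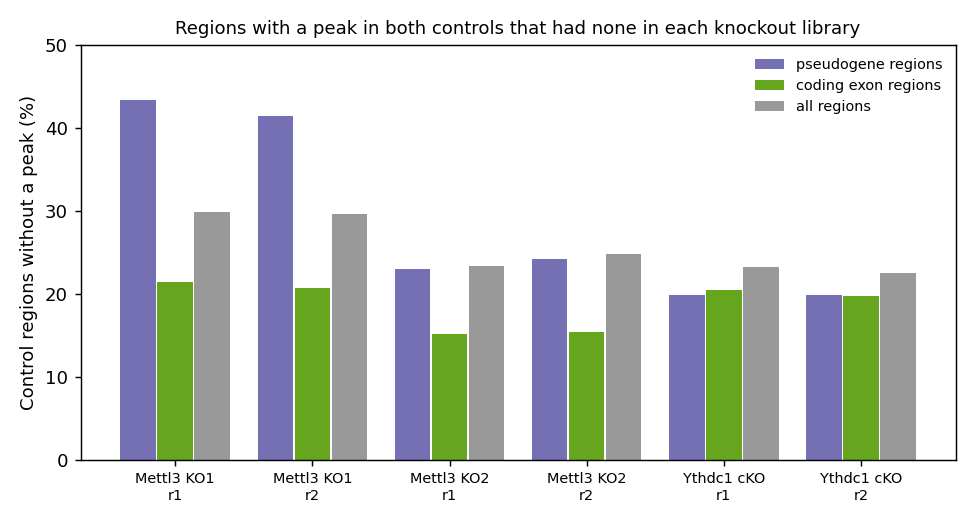
Regions with a peak in both control libraries that had no peak in each knockout library (vertical axis, percent), for pseudogene regions, exons of protein-coding genes and all regions. The pseudogene bars reach 43.3% and 41.4% in the KO1 libraries, and lie within 1 percentage point of those of all regions in the KO2 libraries.

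Identity to the parent went with the calls. Among Mettl3 KO regions on copies of at least 98% identity, 9 of 114 were lost and 12 of 88 gained. At 90 to 98% identity 29 of 163 were lost and 0 of 80 gained, and under 90% 29 of 129 were lost and 0 of 53 gained. All 12 gained regions thus lay on copies of at least 98%. In KO1, 25 of 114, 61 of 163 and 64 of 128 were lost in the same order of identity classes. KO2 gained 63 of 165, 14 of 134 and 7 of 95. In Ythdc1 cKO the losses were most frequent in the highest class, with 32 of 132 regions at 98% or more, 15 of 139 at 90 to 98% and 12 of 96 under 90%. Copies of high identity can share reads with their parents, and the part of shared reads in these counts was not tested.

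Across all 10 libraries the pseudogene peaks formed 758 regions, of which 177 (23.4%) had a peak in every library. This was the case for 18.1% of all regions and 35.7% of those in exons of protein-coding genes. Regions found only in both Mettl3 controls numbered 33 (4.35%), against 1.73% of all regions. Regions absent only from KO1 numbered 29 (3.83%), against 1.27%. Regions found only in both KO2 libraries numbered 35 (4.62%), against 2.06% of all regions. Those found only in both cKO libraries numbered 29 (3.83%), against 6.38%, only in both Ythdc1 controls 11 (1.45%), against 2.33%, and only in both KO1 libraries 3 (0.396%), against 1.74%.

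Of the 617 pseudogenes, 102 had a peak in all 10 libraries and 97 in 1 library. Processed pseudogenes made up 446 of them, which is 4.49% of the 9940 annotated. Unprocessed ones made up 76 (2.88% of 2642). The transcribed classes had a peak more often, with 47 of 296 transcribed processed (15.9%), 36 of 253 transcribed unprocessed (14.2%) and 6 of 17 transcribed unitary pseudogenes. Their members with a peak spanned a median of 3245, 14690 and 12176 bp in this order. The medians were 777 bp for processed and 2674.5 bp for unprocessed ones, and the part of length was not tested. No peak lay on the 158 immunoglobulin variable-segment pseudogenes. Processed pseudogenes held 180 and 184 peaks in KO1 and 305 and 305 in KO2, against 278 and 278 in the Mettl3 controls. Summits opposite a protein-coding gene made up 4.77 to 7.91% per library, and 4.19 to 7.24% lay within 5 kb after the end of a coding gene on the same strand, and the part of such neighbours in the results was not tested.

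The 10 pseudogenes that ranked highest among those with a peak in every library came from genes of varied function. Gm13316 (chromosome 2, 14811848 to 14812538) is a processed copy of Taf5l, a subunit of histone acetyltransferase complexes, with 99.6% identity over 689 bases. Its best peak had a fold enrichment of 11.4 and 9.92 in KO1 and 20.3 and 17.6 in KO2, against 19.1 and 16.9 in the Mettl3 controls, and of 15.9 and 12.6 in the cKO, against 13.6 and 17.1 in its controls. Gm20796, a copy of Prr14l, followed with folds of 12.5 to 18.1 over the libraries, and Gm6125, a copy of the zinc finger gene Zbed4, with 11.8 to 16.8. The Smarca5 copies Gm13034, Gm13136 and Gm13135 ranked among the 10 as well. Gm12397 matched Kdm2b, a histone demethylase gene, at 100% of its 615 bases. The others were Gm17771 (parent Zfp981), Gm5512 (parent Rmnd1) and Zfp862-ps, whose best match aligned over only 133 of 1776 bases. The rule that chose them required a peak in every library. The parents Taf5l, Prr14l, Zbed4, Smarca5, Kdm2b and Rmnd1 each had a peak of their own in all 10 libraries.

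The 5 highest lost Mettl3 KO regions included members of runs of neighbouring copies on chromosomes 3 and 10. Gm5542, on chromosome 3, had no peak in the 4 knockout libraries and folds of 7.06 and 6.97 in the Mettl3 controls. Its neighbour Gm5852 likewise had none in the knockouts and 6.09 and 6.47 in the controls, and both are best matched by Gm10696, which had no peak in any library. Kdm4dl, a copy of the histone demethylase gene Kdm4d on chromosome 9, had no peak in the knockouts and 7.19 and 6.69 in the controls. Gm8689, on chromosome 10 and best matched by Gm4301, had none in the knockouts and 6.21 and 6.58 in the controls. The last of the 5 highest lost regions lay on AC148019.3, a copy of Sympk, whose product acts in 3′ end processing, with 6.39 and 8.19 in the controls. Of 67 lost regions with a parent, the parent had a peak in all 4 knockout libraries for 29 and in none of them for 25. The parent had a peak in both Mettl3 controls for only 36 of the 67. Of 201 kept regions with a parent, it had a peak in all 4 knockout libraries for 140 and in none for 33.

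The 5 highest gained Mettl3 KO regions lay on near-identical copies of Gpx4, Hmgb1, Hdac1 and Tma7. Gpx4-ps2, a copy of the glutathione peroxidase gene Gpx4 on chromosome 10, had folds of 7.87 and 8.80 in KO1 and 8.16 and 10.1 in KO2, against no peak in the Mettl3 controls. The Hmgb1 copy Gm21596 had 5.96 and 6.01 in KO1 and 17.0 and 11.8 in KO2, against none. Gm10093, a copy of the histone deacetylase gene Hdac1, had 5.26 and 5.77 in KO1 and 5.69 and 4.58 in KO2, against none. Tma7-ps had 4.57 and 4.57 in KO1 and 6.02 and 6.29 in KO2, and the Hmgb1 copy Gm45315 had 5.44 and 5.20 in KO1 and 4.57 and 6.00 in KO2, with none in the Mettl3 controls. The Ythdc1 comparison has other controls, and in it Gpx4-ps2, Gm21596 and Gm45315 had a peak in both controls and none in the cKO. The highest kept regions lay on Gm20796, Gm6125, Gm13034, Gm6943 and Gm13135. The Gm6943 region runs beyond the pseudogene, and its summits were not all inside the exon.

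In Ythdc1 cKO the 5 highest lost regions lay on copies of Hmgb1, Rps6 and Gpx4. Hmgb1-ps2 had no peak in the cKO and folds of 11.0 and 9.47 in the Ythdc1 controls, Gm15387 none against 9.41 and 9.88, and Hmgb1-ps1 none against 7.41 and 8.75. Gm16409, a copy of the ribosomal protein gene Rps6, had none against 8.01 and 8.56, and Gpx4-ps2 none against 8.15 and 7.91. The highest gained region lay on Gm16215, with 9.60 and 10.1 in the cKO and no peak in the controls, and its best match was Psmd10 at 69.0% identity. Gm19829, a copy of the chaperone gene Hsp90ab1, gained 2 regions, of 11.0 and 9.54 and of 10.4 and 8.80 in the cKO. Gm8174, a copy of the glycolytic gene Gapdh, had 6.70 and 8.05 in the cKO and none in the controls. Gm48365, which matches the pheromone receptor gene Vmn2r79, had 6.37 and 6.71 against none. The highest kept regions lay on Gm12397, Gm8935 (parent Zfp987), Gm13136, Gm336 (parent Arap2) and Gm13135.

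**Figure D3:**
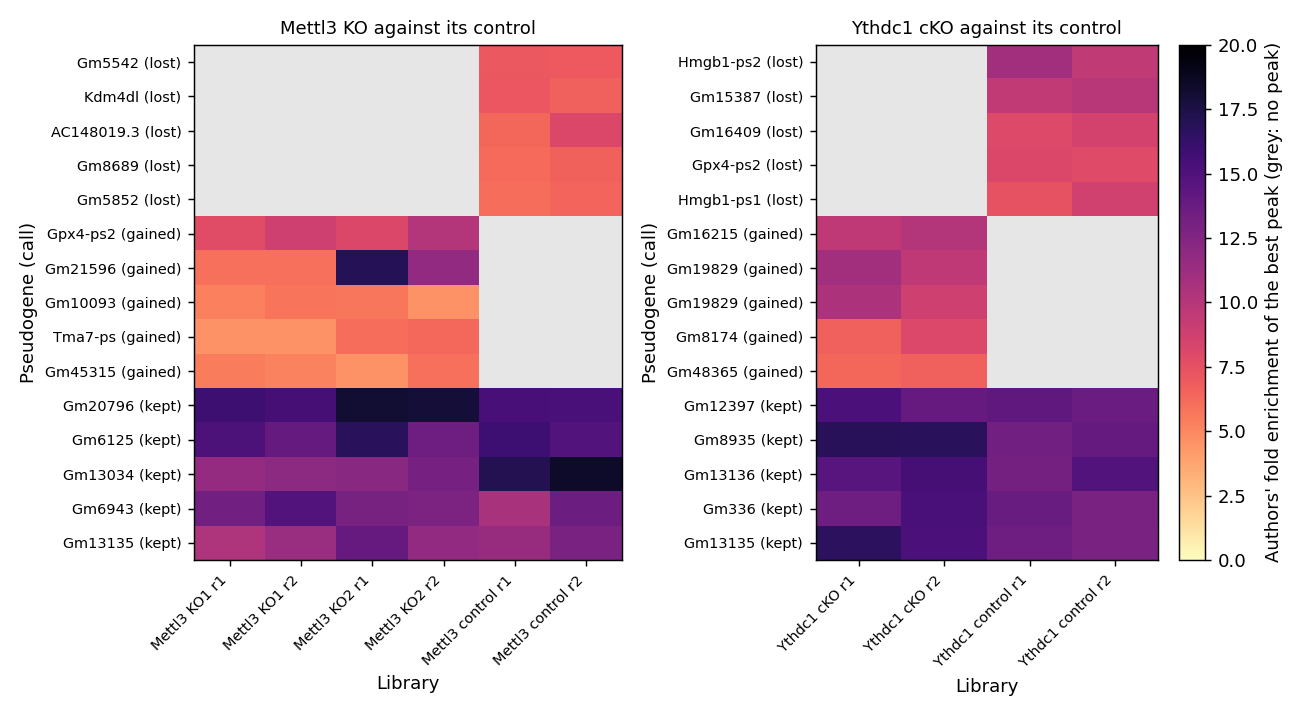
Fold enrichment of the highest lost, gained and kept pseudogene regions, 5 of each, in each library (colour scale from 0 to 20, a ratio given by the authors), for Mettl3 KO and Ythdc1 cKO against their controls. Grey cells are libraries without a peak. Gpx4-ps2 is gained in the left panel and lost in the right one.

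Parent families differed in how many of their copies carried a peak. Zinc finger genes, which encode DNA-binding proteins that include many repressors of transposons, had 32 of 169 annotated copies with a peak (18.9%). Ribosomal protein genes had the most copies, with 84 of 2523 (3.33%). Copies with a peak spanned a median of 3720 bp for zinc finger genes and 585.5 bp for ribosomal protein genes. The part of length in the shares of families was not tested. Copies of HMG and histone genes numbered 27 of 361, RNA-binding protein genes 20 of 206, glycolytic genes 16 of 351, chaperones and cyclophilins 12 of 240, smell and pheromone receptors 12 of 734, ubiquitin and proteasome genes 10 of 214, and cytoskeletal genes 8 of 166. Fewer than 10 copies had a peak in each of the mitochondrial, translation factor, oxidative phosphorylation, pluripotency and 2-cell-like families. The copies that led some of these families were the zinc finger copies Gm17771 and Gm10033, the Rps6 copy Gm11263, the Rpl21 copy Gm5857, the Pabpc4 copies Gm11841 and Gm11839, the Hsp90 copies Gm5844 and Gm9403 and the Hmgb1 copies Gm5176 and Gm7890, all with a peak in 10 libraries. So did the ubiquitin family copies Ube2d-ps and Gm1821, the tubulin copy Tubb4b-ps1, and 4930451G09Rik and B330016D10Rik, which have no parent. Others that led a family had a peak in fewer libraries, with Gm17383 (parent Tuba1b), Gm4462 (parent Eef1g) and Gm48128 (parent Vmn2r79) in 9, the Gapdh copy Gm8170 and the mitochondrial copies Gm10222 and Gm28661 in 8, Gm45038 (parent Vmn2r79) in 6, Gm8153 (parent Gapdh) in 5, Gm10039 (parent Atp5g1) in 4, and Gm4606 (parent Ndufaf4) and Gm6548 (parent Eef1a1) in 2.

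Members of these families varied between groups in different ways. Ribosomal protein copies held 28 and 39 peaks in KO1 and 50 and 50 in KO2, against 29 and 29 in the Mettl3 controls, and 29 and 29 in the cKO, against 37 and 37 in its controls. HMG and histone copies held 14 and 14 in KO1 and 25 and 28 in KO2, against 13 and 11, and 7 and 6 in the cKO, against 14 and 13. Glycolytic copies held 0 and 1 in KO1 and 5 and 3 in KO2, against 5 and 5, and 7 and 8 in the cKO, against 12 and 14. Receptor copies held 3 and 2 in KO1 and 7 and 5 in KO2, against 8 and 8, and 12 and 11 in the cKO, against 1 and 0. Of the 12 receptor copies with a peak, 8 had Vmn2r79 as their best match, and their placed summits all matched its 3′ untranslated region. Whether these 8 derive from a receptor gene or share another sequence with that region was not tested, and overlap with repeats was not analysed. Zinc finger copies held 19 and 20 in KO1 and 34 and 31 in KO2, against 32 and 31, and 26 and 29 in the cKO, against 30 and 27. In Mettl3 KO, where 13.1% of all regions were lost, 4 of 29 ribosomal protein regions (13.8%), 0 of 11 HMG and histone regions and 1 of 29 zinc finger regions (3.45%) were. In KO1 alone, where 24.3% of all regions were lost, 8 of 29 zinc finger regions were (27.6%). Of the 12 gained Mettl3 KO regions, 6 lay on ribosomal protein copies, of 21 with a peak in every knockout library, and 3 on HMG or histone copies, of 13, against 4.38% gained among all regions. In Ythdc1 cKO, where 17.9% of all regions were lost, 6 of 14 HMG and histone regions (42.9%), 10 of 33 ribosomal protein regions (30.3%) and 0 of 22 zinc finger regions were.

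Hmgb1 had the most copies with a peak, 20 of 159 annotated, on 13 chromosomes. A peak was called on 12 and 12 of the 20 in KO1 and on all 20 in both KO2 libraries, against 11 and 10 in the Mettl3 controls. It was called on 5 and 4 in the cKO, against 10 and 10 in the Ythdc1 controls. The KO2 libraries stood above all others and the cKO libraries below all others. Peaks on 7 copies were found only in KO2, among them Hmgb1-ps9 with folds of 12.1 and 10.9. These 7 entered the set of 20 through the group where they are high, so their part of the KO2 counts follows from the selection. Gm7468, shown above, had folds of 15.1 and 14.9 in KO1 and 17.5 and 18.9 in KO2, against 7.86 and 8.90 in the Mettl3 controls, and no peak in the Ythdc1 libraries. Gm5176 had a peak in all 10. Hmgb1 itself had a peak in all 10 libraries.

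Of the 118 Hmgb1 copy summits placed on the parent transcript, 95 fell between 203 and 104 bases before the end of its coding sequence, and they came from 16 copies and all 10 libraries. Each such stretch of 100 bases was chosen as the one that held the most summits. The purine-rich bases printed above lie around the median summit of this stretch. GAAGA was within 50 bases of 66 of the 95 summits, and GGAC of 1. The printed bases hold no GAAGA themselves, so these matches lie in bases beyond them or in other copies. The parent had a peak over the matching base in the same library for 67 of them. Rps6 copies likewise had 40 of 47 summits in 1 stretch, between 113 and 14 bases before the end of the coding sequence, and Rps6 had a peak at the matching base for all 40. Their copies with a peak numbered 5 and 5 in KO1 and 6 and 6 in KO2, against 4 and 4, and 3 and 3 in the cKO, against 6 and 5.

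Ribosomal protein copies held further differences between KO2 and its controls. Of 10 Rps2 copies, 1 and 1 had a peak in KO1 and 7 and 6 in KO2, against 1 and 1 in the Mettl3 controls, and 3 and 3 in the cKO, against 3 and 5 in its controls. Of 4 Rpl17 copies, 1 and 1 had a peak in KO1 and 3 and 3 in KO2, against 0 and 1. A peak only in KO2 was found on 4 of the Rps2 copies and 2 of the Rpl17 copies, so these entered the set through KO2. All Rpl17 summits but 1 of 10 lay within 103 to 4 bases of the end of the coding sequence, where each of the 9 was near a GAAGA. No library had a summit in an exon of the parents Rpl17 and Rpl21, but a peak overlapped an exon of each in 6 libraries. Rpl21 copies showed no such difference, with 4 and 6 of 9 in KO1 and 3 and 4 in KO2, against 6 and 4, and 33 of 35 of their summits in 1 stretch were near a GGAC.

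Copies with a peak in the controls and few in KO1 included those of Crnkl1. Its 5 copies, on chromosome 6 at 89.3 to 90% identity, had a peak on 0 and 0 in KO1 and on 4 and 4 in KO2, against 5 and 5 in the Mettl3 controls, and on 2 and 2 in the cKO, against 4 and 5 in its controls. Gm8038 had folds of 6.22 and 7.95 in KO2, against 12.4 and 10.9 in the Mettl3 controls, and of 5.83 and 6.25 in the cKO, against 10.2 and 8.88. Of 62 summits, 26 fell between 1302 and 1203 bases before the end of the coding sequence, 25 of these within 50 bases of a GGAC, and none was in a KO1 library. Crnkl1 had no peak over the matching base for any of the 26. The 6 copies of Rbbp6, which encodes a ubiquitin ligase, had a peak on 0 and 0 in KO1 and on 1 and 1 in KO2, against 4 and 6, and on 1 and 1 in the cKO, against 0 and 0 in its controls. Rbbp6 itself had a peak in all 10 libraries. The 4 copies of Rexo1, an exonuclease gene, had 0 and 0 in KO1 and 1 and 1 in KO2, against 3 and 3, and 2 and 2 in the cKO, against 2 and 2. The 11 copies of Hpcal1 had 1 and 0 in KO1 and 1 and 1 in KO2, against 7 and 7, and 4 and 5 in the cKO, against 4 and 4. Only copies with a peak in some library were counted, of 10 annotated for Rbbp6, 5 for Rexo1 and 38 for Hpcal1. A peak only in the Mettl3 controls was found on 4, 2 and 4 of them in this order. Those copies entered through the group where they are high, so their absence from the knockouts follows from the selection. Of 28 summits on Hpcal1 copies, 27 fell in the stretch 528 to 429 bases before the end of the coding sequence, and 20 of them were near a GGAC. Gm9265 had folds of 13.0 and 11.8 in the cKO and of 16.7 and 17.5 in its controls, with no peak in the 6 Mettl3 libraries.

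Copies of 2 parents kept their peaks in nearly every library. All 6 Smarca5 copies had a peak in all 10. The 10 Cdv3 copies had 9 and 8 in KO1 and 10 and 10 in KO2, against 10 and 10, and 10 and 10 in the cKO, against 10 and 9. On Cdv3 copies 91 of 102 summits fell between 608 and 509 bases before the end of the coding sequence. GGAC was near 8 of the 91 and the parent had a peak at the matching base for 16. Vmn2r79 copies were the reverse in the Ythdc1 lines, with all 8 carrying a peak in both cKO libraries, against 1 and 0 in their controls. The 8 are those of 55 annotated copies that had a peak in some library. A peak only in the cKO was found on 4 of them, so these entered the set through the group where they are high. The 8 copies had 1 and 1 in KO1 and 4 and 3 in KO2, against 4 and 4 in the Mettl3 controls. Their 45 summits all matched the 3′ untranslated region of Vmn2r79, which had no peak in any library. Gapdh copies with a peak numbered 12 of 239 annotated, with 0 and 1 in KO1 and 5 and 3 in KO2, against 4 and 4. They numbered 4 and 5 in the cKO, against 7 and 7 in its controls. A peak only in the Ythdc1 controls was found on 3 of the 12, so these entered through the group where they are high.

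**Figure D4:**
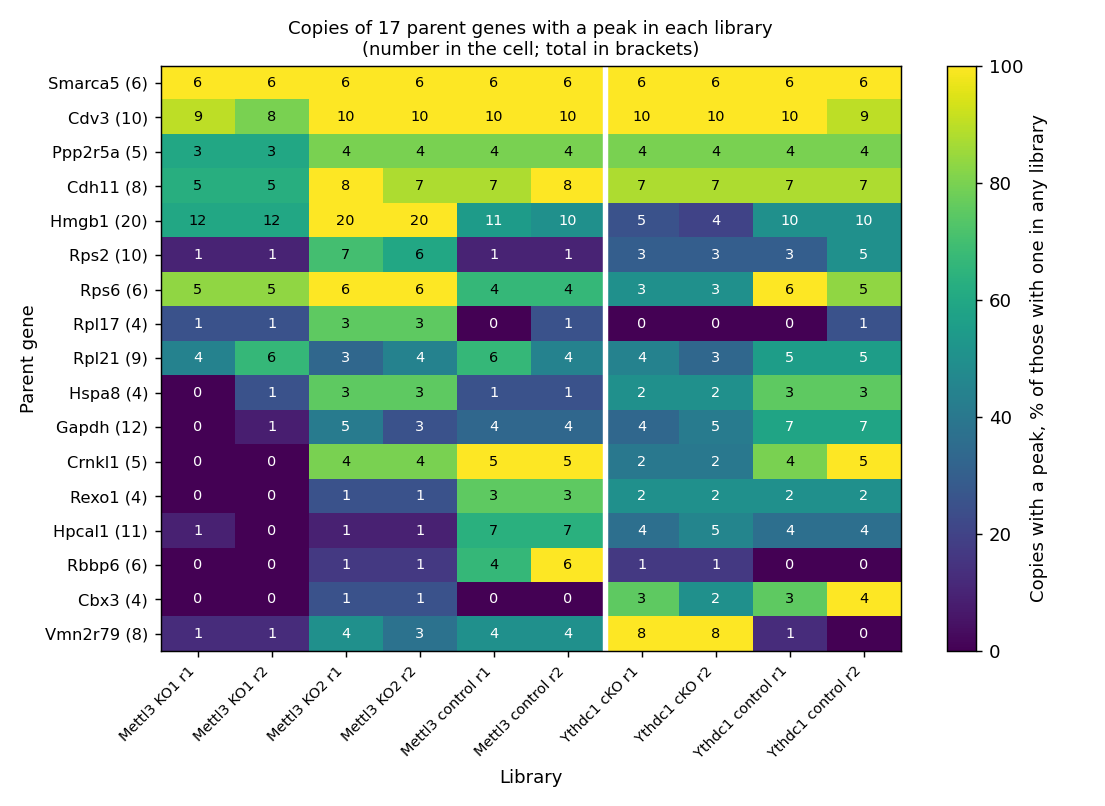
Number of copies of each of 17 parent genes with a peak (in the cell) in each library, coloured by the percentage of the copies with a peak in any library, with that total in brackets. Smarca5 copies are filled in every library, Hmgb1 copies in KO2 and Vmn2r79 copies in the cKO. Copies with a peak in only 1 group entered the totals through that group.

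**Figure D5:**
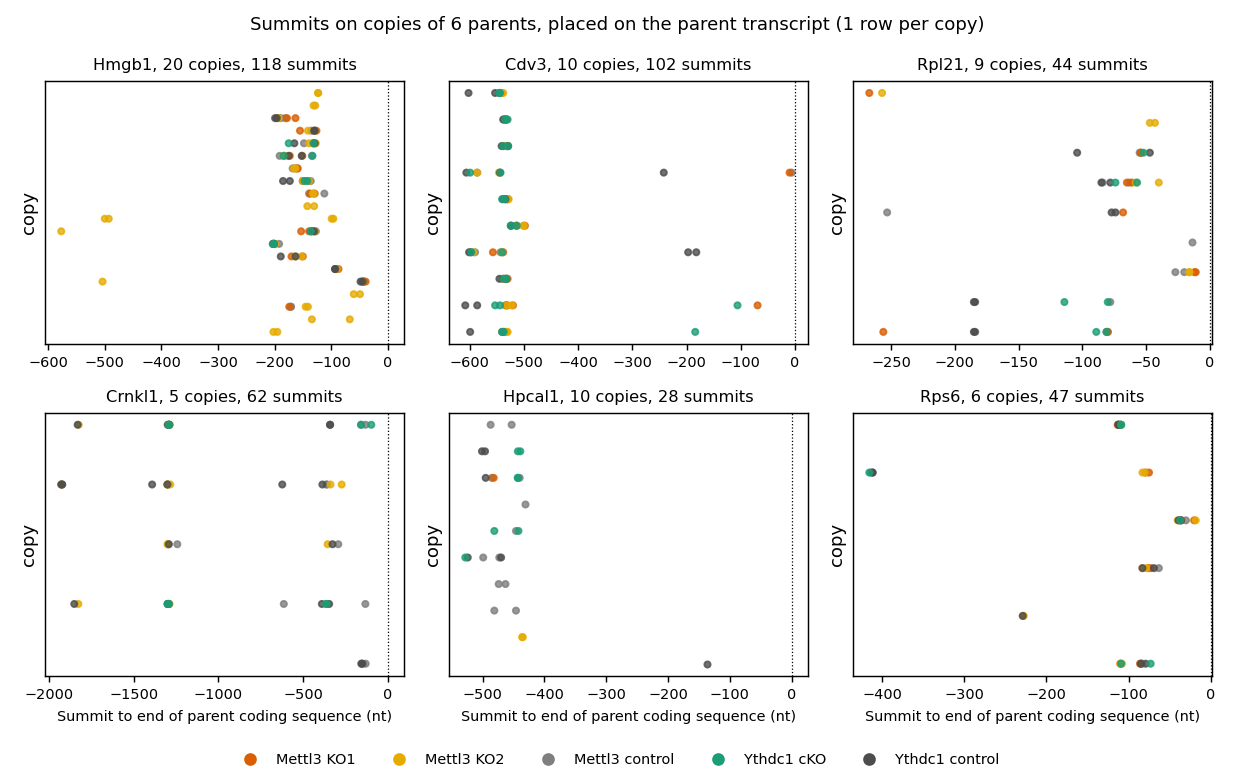
Position of each summit on copies of 6 parents, as the distance in nucleotides to the end of the parent's coding sequence (dotted line at 0), with 1 row per copy and colours for groups. Summits of different copies line up in the same stretch, such as 203 to 104 bases before the end for Hmgb1 and 608 to 509 for Cdv3.

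Some pseudogenes with a peak were neighbours in the genome, and 14 runs of at least 5 had gaps of at most 500 kb between members. Whether such runs are more frequent than among all annotated pseudogenes was not tested. On chromosome 4, from 145446740 to 147822202, 32 of 58 annotated pseudogenes had a peak, among them the Smarca5 copies and 9 of the 10 Cdv3 copies. Of these 32, 25 and 25 had a peak in KO1 and 28 and 29 in KO2, against 28 and 27 in the Mettl3 controls, and 27 and 28 in the cKO, against 28 and 26. In 8 of the 14 runs all 4 Mettl3 knockout libraries had a peak on fewer pseudogenes than both controls, and in none on more. For KO1 alone 11 runs lay below both controls and none above, and for KO2 alone 8 lay below and 1 above. In the cKO none lay below and 5 above. Runs hold only pseudogenes with a peak in some library, and some members entered through 1 group alone, such as Rbbp6 copies with a peak only in the Mettl3 controls. Part of these counts of runs therefore follows from the selection, and pseudogenes outside runs were not compared in this way. The examples given next were chosen after their values were seen. The 7 pseudogenes from 100297941 to 100377279 on chromosome 10 had 0 and 0 in KO1 and 2 and 1 in KO2, against 5 and 7, and 3 and 2 in the cKO, against 2 and 4. The 6 from 93727026 to 94158721 on chromosome 3 had 0 and 0 in KO1 and 2 and 1 in KO2, against 5 and 5, and 2 and 1 in the cKO, against 1 and 0. The 5 Rbbp6 copies from 50940546 to 51176537 on chromosome 7 had 0 and 0 in KO1 and 1 and 1 in KO2, against 4 and 5, and 1 and 1 in the cKO, against 0 and 0. The 12 from 19037428 to 20888200 on chromosome 8 had 8 and 9 in KO1 and 10 and 8 in KO2, against 8 and 8, and 8 and 8 in the cKO, against 8 and 8. Members of a run share sequence and are not independent of each other.

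Families were set by the symbol of the parent, and few copies fell in the 2-cell-like and pluripotency families. Parents of these kinds with other symbols were not counted in them. Zscan4a, an unprocessed pseudogene of the Zscan4 family that marks the 2-cell-like state, had no peak and 3.43 in KO1 and 12.3 and 12.6 in KO2, against 15.9 and 11.0 in the Mettl3 controls. It had 5.06 and 4.50 in the cKO, against 7.22 and 8.18 in its controls. Gm45551, a Zscan4b copy, had a peak only in the Mettl3 controls, of 4.14 and 3.97. Zfp42-ps1, a copy of the pluripotency gene Zfp42, had folds of 1.93 to 3.35 in the 6 Mettl3 libraries and none in the Ythdc1 libraries. Gm49203, a copy of the germ cell gene Dppa3, had 3.57 and 3.26 in the cKO, against 3.52 and no peak in its controls. No pseudogene with a peak had Mettl3 or Ythdc1 as its parent.

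Of 3553 summits that could be placed on a parent transcript, 93.0% lay in its coding sequence. Of the aligned bases of these pseudogenes, 88.9% matched coding sequence, and 92.3% did when each pseudogene was weighted by its summits. The summits thus lay in coding sequence about as often as the aligned bases themselves, and the 60.1 to 65.1% of summits in protein-coding exons that did, depending on the library, come from transcripts with their full untranslated regions. The parent had a peak over the matching base in the same library for 1795 (50.5%). The share was 953 of 1336 (71.3%) at 98% identity or more, 490 of 1317 (37.2%) at 90 to 98% and 352 of 900 (39.1%) under 90%. The median relative position along the pseudogene was 0.478 to 0.521 over the libraries, near its middle.

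GGAC was near fewer of the summits in the Mettl3 knockouts than in their controls. With full windows of 50 bases on each side, on the sense strand, it was present at 31.3% and 31.2% of pseudogene summits in KO1 and at 38.0% and 36.7% in KO2, against 41.9% and 43.0% in the Mettl3 controls. It was present at 40.0% and 43.9% in the cKO, against 41.3% and 39.7% in the Ythdc1 controls. All 4 Mettl3 knockout libraries lay below both controls, and no test was planned for this measure. In the remaining parts of the same pseudogenes 28.2 to 30.8% of such windows held GGAC, and among 92183 stretches of 101 bases from all annotated pseudogenes 29.4% did. Among summits of protein-coding exons the share was 48.9 to 51.8%. It was 49.6% and 48.9% there in KO1 and 50.1% and 49.8% in KO2, against 51.8% and 51.5% in the Mettl3 controls. The lower share in the Mettl3 knockouts was thus not particular to pseudogenes, though the difference was smaller in coding exons. The wider DRACH motif was present at 90 to 95.7% of pseudogene summits and in 87.1 to 89.2% of the remaining windows, so it separates them little.

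GAAGA and purine content were examined after the Hmgb1 stretch had been seen. GAAGA was in 28.2% of the stretches from all annotated pseudogenes. It was within 50 bases of the summit of 9 of the 12 regions gained in Mettl3 KO and of 22 of the 68 lost ones (32.4%). GGAC was near 2 of the 12 and 27 of the 68 (39.7%). The 12 include Hmgb1 copies, and GAAGA was not recounted without these. Among kept Mettl3 KO regions GAAGA was near 54 of 194 (27.8%). In KO1 GAAGA was near 46 of 152 lost and 11 of 17 gained regions, and in KO2 near 25 of 77 and 45 of 85. In the cKO GAAGA was near 26 of 61 lost (42.6%) and 24 of 61 gained regions (39.3%). Windows over 70% purine made up 1.71% of all pseudogene stretches. They made up 11.4% and 9.82% of summits in KO1 and 11.0% and 11.9% in KO2, against 7.01% and 5.72% in the Mettl3 controls, and 4.53% and 4.43% in the cKO, against 6.54% and 5.73% in its controls. These values include the Hmgb1 copies, whose number with a peak itself differs by group. Without them the share was 8.49% and 7.98% in KO1 and 8.17% and 8.60% in KO2, against 6.00% and 4.22% in the Mettl3 controls, and 4.08% and 3.73% in the cKO, against 5.5% and 4.40%. With them, such a window was found in 0 of the 68 lost, 19 of 194 kept and 3 of 12 gained Mettl3 KO regions. In KO1 it was found in 4 of 152 lost and 2 of 17 gained regions, and in KO2 in 0 of 77 lost and 16 of 85 gained ones. GGAC was near 76 of 152 lost regions in KO1 (50%) and 2 of 17 gained ones, whereas in KO2 it was near 31 of 77 lost (40.3%) and 30 of 85 gained ones (35.3%). In Ythdc1 cKO, GGAC was near 26 of 61 lost regions (42.6%) and 30 of 61 gained ones (49.2%), and 8 of the lost and 1 of the gained ones were over 70% purine. Since lost regions were called from control peaks and gained regions from knockout peaks, these shares describe different peaks, and they overlap with identity to the parent.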

How the data were processed

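Chromatin-associated RNA, depleted of ribosomal RNA, was immunoprecipitated for m6A and sequenced as stranded libraries, per the labels' protocols. CASAVA, Trimmomatic 0.38, HISAT2 2.1.0, MACS2 and mm10 were used, per the submitters' processing notes. The deposited peak lists give, per library and strand, a score, a fold enrichment (a ratio), and −log10 of the p-value and q-value for each peak, and no listed peak is narrower than 150 bp or has a −log10 q under 2. Depth is unknown. Summits were matched to GENCODE M21 exons. Parents were taken from the symbol or, otherwise, from the best blastn 2.17.0 match (e-value 1e-10, at least 100 aligned bases) among protein-coding transcripts. Peaks were merged at an overlap of at least 1 bp. Counts per library were compared by exact permutation tests in Python 3.11.15 (pandas 2.3.3, numpy 2.4.6), which were tested on simulated data. The pairing of replicate numbers was checked, with correlations of deviations of -0.0159 for KO1, 0.00739 for KO2 and 0.0469 for the cKO. The named genes are the 10 pseudogenes with peaks in the most libraries and the 5 highest lost, gained and kept regions per knockout. They also include 2 per family and all copies that the parent symbol placed in the pluripotency or 2-cell-like family. Others named with the copies of a parent were chosen after their values were seen. The members and lists were chosen with earlier results of these data known. Alternatives were a stricter q, equal list lengths, other overlap and exon rules, other pseudogene types, parent rules, a replicate block and leaving out each library. The 95% identity split, GAAGA, purine content with and without Hmgb1 copies, aligned bases by parent region and counts of runs were added after seeing the data. Peaks on other contigs, 17 to 35 per library, were left out.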

Additional observations from a re-analysis of the deposited data

Results flagged for a closer look

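Several measures moved in opposite ways in the Mettl3 KO1 and KO2 lines against their shared controls, with all libraries of a line on 1 side, and these differences between the lines were not tested. The change in the pseudogene share of peaks was lower in KO1 than in KO2 by a difference of -0.327 percentage points. The change in the number of pseudogenes with a peak differed by -135, that in peaks on processed pseudogenes by -123, and that in peaks on copies of chaperone and cyclophilin genes by -7.5, with 4 and 4 such peaks in KO1 and 10 and 13 in KO2, against 8 and 8 in the Mettl3 controls.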

How the results depend on the processing

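Of 190 recomputed values, the ones that left out a library stayed within 1.5 times in 80 cases, moved further in 8 and reversed in 2, and the others did so in 72, 21 and 7 cases. No exact p was below 0.133 in any of them, but the designs could not pass 0.05. On leaving out a library, the Mettl3 KO difference (-79.25 peaks, -0.110 percentage points) ranged over -107 to -51.8 peaks, the smallest without KO1 replicate 1, and -0.169 to -0.0542 points. Its share difference was -0.170 with the same number of peaks per list. The KO2 difference in peaks per library (+1) was -5.5 with −log10 q of at least 5, -6.5 with the same number of strongest peaks per list and -52 under 95% identity, but +20 with at least 50% of the peak within exons, +14 without transcribed, unitary and polymorphic types and +3 without long non-coding exons, and -3.5 to 5.5 on leaving out a library. Its share difference (+0.0533) was -0.0159 with the same number of peaks, -0.0921 under 95% identity and +0.0952 with at least 50% of the peak within exons. The cKO differences (-22 peaks, -0.108 points) were +16 peaks and +0.00772 points under 95% identity, -5.5 peaks and -0.0586 points without transcribed, unitary and polymorphic types, and -41 peaks with the same number per list. Under 95% identity, fewer regions entered: Mettl3 KO lost 43, kept 101 and gained 0, KO1 96, 108 and 0, KO2 48, 148 and 14, and the cKO 18, 140 and 36. Without KO1 replicate 1 or 2, KO1 gained 30 or 28 regions, against 17, and the range on leaving out any library of that comparison was 21 to 30. The rule for a call then asks for fewer libraries, which by itself tends to raise such counts. Parents by symbol alone were found for 58 pseudogenes. Replicate numbers were shared but did not pair the libraries, and with a replicate block the exact p of the Mettl3 KO share was 0.556 (difference -0.110). Absence of a peak is limited by a depth that the lists do not give.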
